A study of Homo sapiens with 24 samples.

Results

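Among the 2652 mature microRNAs (miRNAs) counted in SBC-3 cells, 5 are described here: miR-1269a, miR-1269b, miR-676-3p, miR-675-3p and miR-675-5p. They were picked by name from their hairpins MIR1269A, MIR1269B, MIR676 and MIR675, because earlier results of the same libraries had placed them among the miRNAs that differed after loss of NONO. The values that chose them are therefore those of the NONO and control siRNA libraries. These are given as a description without a test, and so are the SFPQ values, which are set against the same control libraries.

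SBC-3 is a human small cell lung cancer line, labelled WT, and every library came from cells harvested 72 h after reverse transfection with 10 nM of one oligonucleotide. There were 8 groups of 3 libraries: the small interfering RNAs (siRNAs) siSFPQ-2 and siSFPQ-3 against SFPQ, siNONO-3 and siNONO-4 against NONO, and the control siRNA siCtrl; and the antisense oligonucleotides (ASOs) ASO-NEAT1-1047 and ASO-NEAT1-1473 against NEAT1, with the control ASO-Ctrl. Each library was made from 100 ng of total RNA with spike-in oligonucleotides and the QIAseq miRNA kit. The labels do not say whether the 3 libraries of a group came from separate cultures, so p-values measure the spread between these libraries, which may be technical. The work rests on 1 cell line with transient knockdown, and the small RNA tables hold no SFPQ, NONO or NEAT1 transcript by which the knockdown could be checked.

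A miRNA is cut from a hairpin in a longer primary transcript, first by Drosha with DGCR8 in the nucleus and then by Dicer in the cytoplasm, and either arm of the hairpin (5p or 3p) can be loaded into an Argonaute protein. Target choice depends mainly on the seed, bases 2 to 8 of the mature strand. SFPQ and NONO are related RNA-binding proteins of the DBHS family that form dimers and sit in paraspeckles, nuclear bodies built on the long noncoding RNA NEAT1. MIR675 lies in an exon of H19, an imprinted long noncoding RNA expressed from the maternal allele in fetal tissue and many tumours. MIR676 lies in an intron of EDA, which encodes ectodysplasin A, a ligand needed for teeth, hair and sweat glands.

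The mature sequences below, from RefSeq on GRCh38.p14, show which of the miRNAs share a seed and could share reads; the seed is in capitals.
miR-1269a: cUGGACUGagccgugcuacugg
miR-1269b: cUGGACUGagccaugcuacugg
miR-676-3p: cUGUCCUAagguuguugaguu
miR-676-5p: uCUUCAACcucaggacuugca
miR-675-3p: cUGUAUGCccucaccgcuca
miR-675-5p: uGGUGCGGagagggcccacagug
miR-1269a and miR-1269b have the same seed and differ at a single base of 22, G13A, counted from 1 at the 5′ end of miR-1269a. The seeds of miR-676-3p and miR-675-3p occur in no other mature miRNA of the RefSeq table, and that of miR-675-5p is shared with miR-4466. The MIR675 hairpin is shown next because both of its arms were measured, with the mature 5p and 3p strands in capitals.
MIR675: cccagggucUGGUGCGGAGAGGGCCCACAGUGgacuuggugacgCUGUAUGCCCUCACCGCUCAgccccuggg

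On hg38, miR-1269a (MIMAT0005923) lies on the plus strand of chromosome 4 (66276890 to 66276911), where the GENCODE v29 annotation has no gene other than its own hairpin. miR-1269b (MIMAT0019059) lies on the minus strand of chromosome 17 (12917313 to 12917334), antisense within an intron of ARHGAP44. miR-676-3p (MIMAT0018204) lies on the plus strand of chromosome X (70022899 to 70022919), in an intron of EDA read in the same direction. miR-675-3p (MIMAT0006790, 1996768 to 1996787) and miR-675-5p (MIMAT0004284, 1996800 to 1996822) lie on the minus strand of chromosome 11, in an exon of 4 annotated H19 transcripts.

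All 5 miRNAs passed the filter on low counts that left 626 miRNAs for testing, and all were of low to middling abundance. Over the 24 libraries miR-1269a had 13 to 160 counts, miR-676-3p 13 to 59, miR-675-3p 12 to 78 and miR-675-5p 10 to 89. The libraries held 2038382 to 4279644 miRNA counts. Levels are given as CPM, counts divided by the TMM-scaled library size and brought to 1 common scale. miR-9-5p and miR-7-5p, both usual in neural and neuroendocrine cells, averaged 90608 and 16060 CPM in the siCtrl libraries, whereas miR-375-3p, another neuroendocrine marker, averaged 0.669 CPM. The liver miRNA hairpin MIR122 had no count in any library. The first principal component (61.5% of the variance) held the 6 siSFPQ libraries apart from the other 18. On the second component (9.94%), siCtrl replicate 1 lay at 11.7, against -8.18 and -7.74 for siCtrl replicates 2 and 3, and the values against siCtrl are given with and without it.

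**Figure D1:**
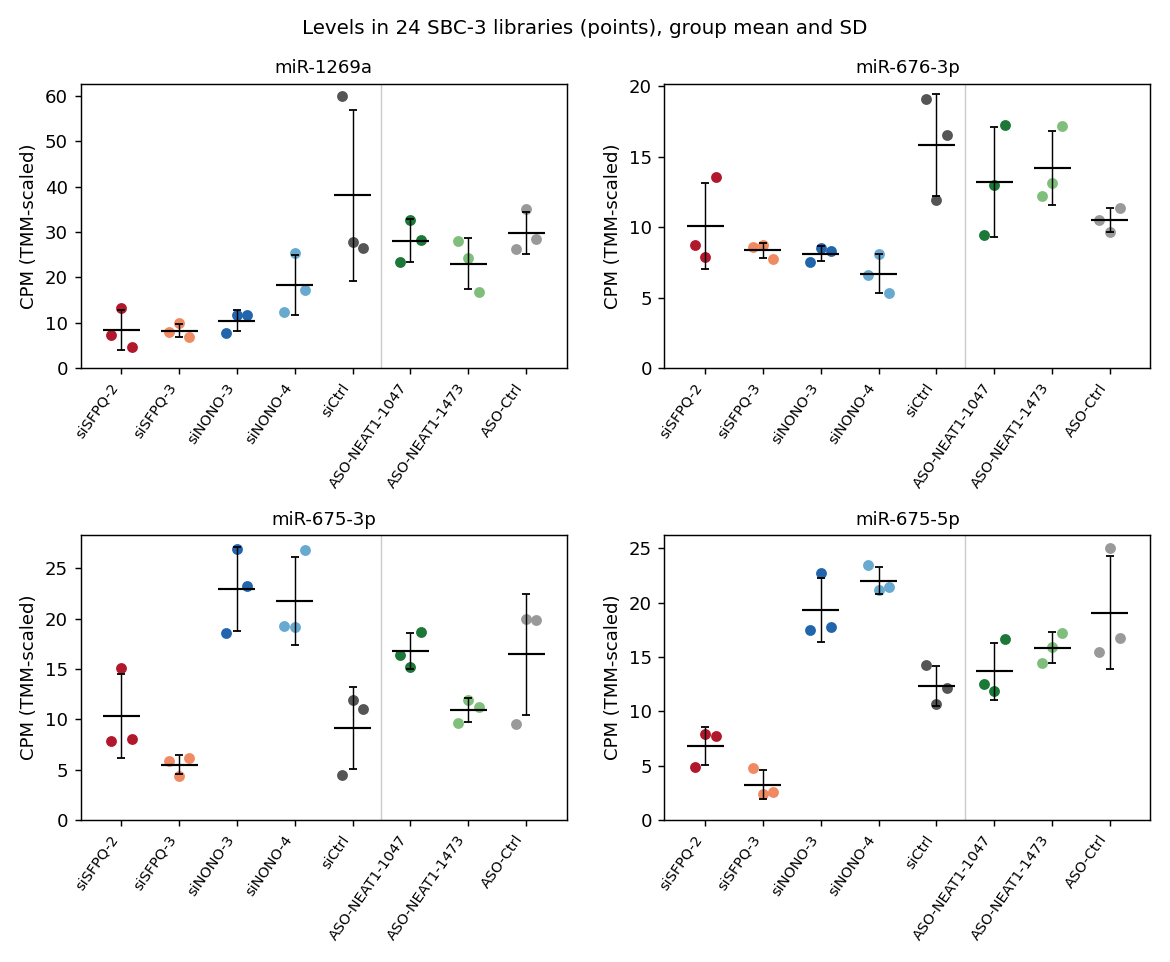
Each point is the CPM of 1 library in 1 of the 8 groups, with bars for the group mean and SD (n = 3). miR-1269a was lowest in the siSFPQ libraries and miR-676-3p in the siNONO-4 libraries, while both MIR675 arms were highest on average with the NONO siRNAs; siCtrl replicate 1 stands at 60.0 CPM for miR-1269a.

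miR-1269a and miR-1269b were lower after loss of SFPQ and after loss of NONO than with siCtrl. miR-1269a is best known as a miRNA raised in colorectal and liver cancers. It had 7.24, 13.3 and 4.76 CPM in the siSFPQ-2 libraries and 7.92, 9.86 and 6.98 CPM in the siSFPQ-3 libraries. With NONO siRNAs it had 7.81, 11.8 and 11.8 CPM for siNONO-3 and 12.4, 25.3 and 17.3 CPM for siNONO-4, against 60.0, 27.9 and 26.4 CPM for siCtrl. All 12 SFPQ and NONO knockdown libraries lay below the lowest siCtrl library, with siNONO-4 replicate 2 nearest to it. The log2 fold change against siCtrl was -2.19 ± 0.29 (SE) for SFPQ and -1.47 ± 0.29 for NONO, each over 6 libraries against 3.

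The siCtrl value leaned on 1 library. With siCtrl replicate 1 left out, the log2 fold change of miR-1269a was -1.73 for SFPQ and -1.04 for NONO. Set instead against the ASO-Ctrl libraries, a comparison chosen after the data were seen, it was -1.83 for SFPQ and -1.11 ± 0.29 for NONO. The direction was the same against either control.

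The counts could not tell miR-1269a and miR-1269b apart. Their counts were equal in 7 of the 24 libraries and never differed by more than 4. In all, 1545 counts went to miR-1269a and 1542 to miR-1269b. miR-1269b had log2 fold changes of -2.19 ± 0.30 for SFPQ and -1.42 ± 0.30 for NONO, and without siCtrl replicate 1 -1.72 for SFPQ and -0.98 for NONO. The pair is best read as 1 measurement. From which hairpin the reads came cannot be told.

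miR-676-3p was also lower after loss of NONO. It had 7.54, 8.52 and 8.34 CPM in the siNONO-3 libraries and 6.59, 8.12 and 5.36 CPM in the siNONO-4 libraries, against 19.1, 11.96 and 16.5 CPM in the siCtrl libraries. The groups did not overlap, and the log2 fold change was -1.09 ± 0.23. With SFPQ siRNAs it had 8.75, 7.89 and 13.5 CPM for siSFPQ-2 and 8.60, 8.77 and 7.75 CPM for siSFPQ-3. Here 5 of 6 libraries lay below all of siCtrl, the exception being siSFPQ-2 replicate 3, and the log2 fold change was -0.78 ± 0.23. Without siCtrl replicate 1 it was -0.65 for SFPQ and -0.98 for NONO. Set against ASO-Ctrl the differences shrank to -0.51 ± 0.24 for NONO and -0.20 for SFPQ, since miR-676-3p averaged 10.5 ± 0.83 CPM in ASO-Ctrl and 15.9 ± 3.6 CPM in siCtrl (SD, n = 3 each).

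The other arm of this hairpin, miR-676-5p, was scarcely present. It had 0 to 5 counts per library and 48 in all, against 821 for miR-676-3p, was at 0 in 3 libraries, and did not pass the filter. No fold change is given for it.

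Both arms of MIR675 were higher after loss of NONO, and the 5p arm was lower after loss of SFPQ. miR-675 is known in mouse placenta for restraining growth, and its host H19 is one of the most studied imprinted genes. miR-675-3p had 18.6, 27.0 and 23.3 CPM in the siNONO-3 libraries and 19.2, 19.2 and 26.8 CPM in the siNONO-4 libraries, against 4.497, 11.96 and 11.01 CPM in the siCtrl libraries. Every siNONO library exceeded every siCtrl library, with a log2 fold change of 1.28 ± 0.31. With SFPQ siRNAs miR-675-3p had 7.85, 15.1 and 8.05 CPM for siSFPQ-2 and 5.88, 4.38 and 6.20 CPM for siSFPQ-3. These overlapped with siCtrl, and the log2 fold change was -0.27 ± 0.31; it was 0.17 when libraries were scaled on their total counts.

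miR-675-5p had 4.83, 7.89 and 7.69 CPM in the siSFPQ-2 libraries and 4.75, 2.41 and 2.58 CPM in the siSFPQ-3 libraries. It had 17.5, 22.7 and 17.7 CPM in the siNONO-3 libraries and 23.4, 21.2 and 21.4 CPM in the siNONO-4 libraries, against 14.2, 10.6 and 12.1 CPM in the siCtrl libraries. The 3 conditions did not overlap: all 6 siSFPQ libraries lay below siCtrl and all 6 siNONO libraries above it. The log2 fold change was -1.38 ± 0.25 for SFPQ and 0.74 ± 0.24 for NONO; without siCtrl replicate 1 it was -1.30 for SFPQ and 0.80 for NONO.

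The MIR675 values after NONO loss were smaller against the other control. ASO-Ctrl exceeded siCtrl by 0.85 ± 0.34 on the log2 scale for miR-675-3p and by 0.62 ± 0.27 for miR-675-5p. Against ASO-Ctrl, NONO loss gave 0.44 ± 0.28 for miR-675-3p and 0.11 ± 0.22 for miR-675-5p, while SFPQ loss gave -1.12 for miR-675-3p and -2.01 for miR-675-5p. Without siCtrl replicate 1, in which miR-675-3p had its lowest siCtrl value, the log2 fold change of miR-675-3p was -0.65 for SFPQ and 0.88 for NONO.

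**Figure D2:**
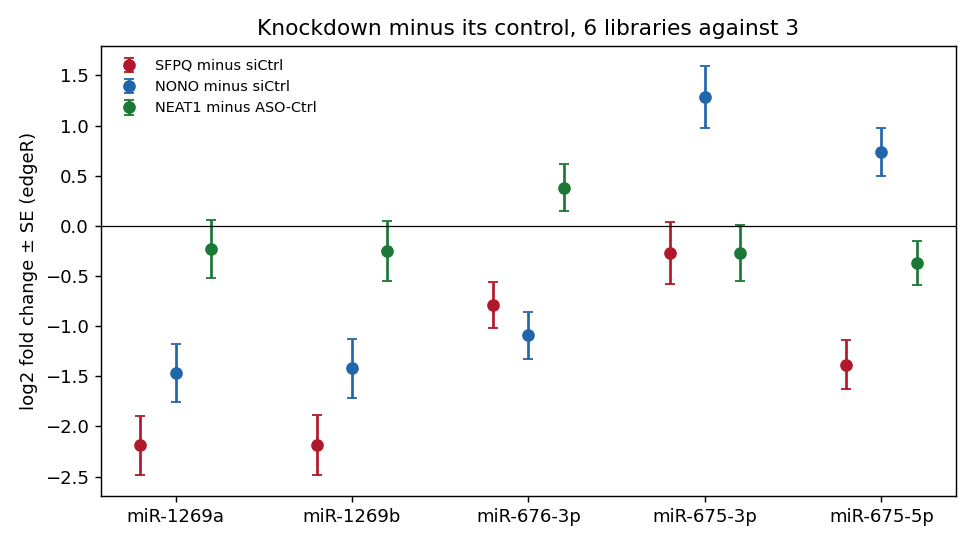
Log2 fold change with SE (edgeR) of each miRNA for SFPQ and NONO loss against siCtrl and for NEAT1 loss against ASO-Ctrl, 6 libraries against 3. The SFPQ and NONO values lie on opposite sides of 0 for both MIR675 arms, though the SFPQ value of miR-675-3p is -0.27 ± 0.31. The NEAT1 values lie between -0.37 and 0.38.

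By edgeR's quasi-likelihood test with an adjusted p under 0.05, NONO loss changed 1.6% of the 626 miRNAs, 0.958% higher and 0.639% lower, or 10 in all. Of the 5 miRNAs described, 4 are among those 10: miR-1269a, miR-1269b and miR-676-3p of the 4 that were lower and miR-675-3p of the 6 that were higher. miR-675-5p is not among them, and miR-1269a and miR-1269b, best read as 1 measurement, count as 2 here. As this contrast chose the miRNAs, nothing is read from the count. For SFPQ loss, 48.2% of all miRNAs were called, 22.7% lower and 25.6% higher. Of the 5, 4 were among those lower, all but miR-675-3p, with miR-1269a and miR-1269b again counted as 2. Nothing is read from this count either, since it rests on the same siCtrl libraries. SFPQ loss gave 160 higher and 142 lower calls with TMM, 252 and 67 when scaled on library totals, and 182 and 90 on spike-in totals. For NONO loss the corresponding counts were 6 higher and 4 lower, 17 and 4, and 3 and 3. The libraries of miR-1269a, miR-1269b and miR-675-5p that lay wholly below siCtrl after SFPQ loss belong to a class of 14.2% of all miRNAs. After NONO loss, 1.92% of all miRNAs lay wholly below siCtrl and 3.99% wholly above it; miR-1269a, miR-1269b and miR-676-3p belong to the first class and both MIR675 arms to the second.

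Loss of NEAT1, the comparison whose libraries did not choose the miRNAs, gave no call for any of the 5. The edgeR test called 0% of the 626 miRNAs (19 at an unadjusted p under 0.05), and DESeq2 called 0. miR-1269a had 23.3, 32.7 and 28.4 CPM for ASO-NEAT1-1047 and 28.0, 24.3 and 16.9 CPM for ASO-NEAT1-1473, against 26.2, 35.0 and 28.4 CPM for ASO-Ctrl. The log2 difference was -0.23 ± 0.29 (edgeR adjusted p = 0.910), with 3 of the 6 libraries below all of ASO-Ctrl. For miR-1269b it was -0.25 ± 0.30 (edgeR adjusted p = 0.910).

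miR-676-3p had 9.44, 13.0 and 17.3 CPM for ASO-NEAT1-1047 and 12.2, 13.2 and 17.2 CPM for ASO-NEAT1-1473, against 10.5, 9.70 and 11.4 CPM for ASO-Ctrl. Of the 6 NEAT1 libraries 5 lay above all of ASO-Ctrl and 1 below, and the difference of 0.38 ± 0.23 missed the threshold (edgeR adjusted p = 0.908). miR-675-3p had 16.4, 15.2 and 18.7 CPM for ASO-NEAT1-1047 and 9.61, 11.95 and 11.2 CPM for ASO-NEAT1-1473, against 9.50, 20.02 and 19.9 CPM for ASO-Ctrl. These overlapped throughout, with a difference of -0.27 ± 0.28 (edgeR adjusted p = 0.910). miR-675-5p had 12.5, 11.8 and 16.7 CPM for ASO-NEAT1-1047 and 14.4, 15.9 and 17.2 CPM for ASO-NEAT1-1473, against 15.4, 25.02 and 16.8 CPM for ASO-Ctrl. Its difference of -0.37 ± 0.22 missed the threshold as well (edgeR adjusted p = 0.908). In none of the 5 did the NEAT1 libraries lie wholly apart from ASO-Ctrl, and a missed threshold does not show that the levels were equal.

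The reagents against one target were also compared with each other. For NONO this uses libraries that chose the miRNAs, though not the contrast with siCtrl that did so. siNONO-3 gave lower miR-1269a than siNONO-4, 10.5 ± 2.3 against 18.3 ± 6.5 CPM (SD, n = 3 each). All 3 siNONO-3 libraries lay below the siNONO-4 libraries, as for 4.95% of all miRNAs, but the difference of -0.83 ± 0.36 missed the threshold (edgeR adjusted p = 0.703). siSFPQ-2 gave higher MIR675 levels than siSFPQ-3, 10.3 ± 4.2 against 5.49 ± 0.97 CPM for miR-675-3p and 6.80 ± 1.7 against 3.25 ± 1.3 CPM for miR-675-5p. Again the libraries did not overlap, as for 9.11% of all miRNAs, and neither difference passed: 0.92 ± 0.35 for miR-675-3p (edgeR adjusted p = 0.544) and 1.05 ± 0.31 for miR-675-5p (edgeR adjusted p = 0.194). For ASO-NEAT1-1047 minus ASO-NEAT1-1473, miR-675-3p differed by 0.61 ± 0.33, all 3 libraries of the first above the second as for 5.43% of all miRNAs (edgeR adjusted p = 0.954). Over all 626 miRNAs, 0.639% were called between the SFPQ siRNAs, and 0% between the NONO siRNAs or between the NEAT1 ASOs. At an unadjusted p under 0.05 there were 38 between the NONO siRNAs and 15 between the NEAT1 ASOs, and DESeq2 called 7 and 0.

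Ordered by mean level, miR-1269a ran from siSFPQ-3 (8.25 CPM) through siSFPQ-2, siNONO-3, siNONO-4, ASO-NEAT1-1473, ASO-NEAT1-1047 and ASO-Ctrl to siCtrl (38.1 CPM). Neighbours in that order overlapped except siNONO-3 and siNONO-4. For miR-676-3p the order ran from siNONO-4 (6.69 CPM) to siCtrl (15.9 CPM), with every neighbour overlapping. For miR-675-3p it ran from siSFPQ-3 (5.49 CPM) to siNONO-3 (22.9 CPM), with a gap only between ASO-NEAT1-1047 and siNONO-4. For miR-675-5p it ran from siSFPQ-3 (3.25 CPM) to siNONO-4 (22.0 CPM), with gaps on both sides of siSFPQ-2.

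The balance of the MIR675 arms can be read within a library, without any scaling between libraries. The log2 ratio of 5p to 3p counts (0.5 added to each) averaged -0.56 ± 0.44 for siSFPQ-2, -0.79 ± 0.46 for siSFPQ-3, -0.24 ± 0.15 for siNONO-3 and 0.03 ± 0.32 for siNONO-4, against 0.53 ± 0.96 for siCtrl (SD, n = 3 each). Pooled over libraries the 5p arm made up 38.5% of MIR675 counts after SFPQ loss (95% exact Clopper-Pearson interval 32.7 to 44.6%), 48.9% after NONO loss (45.4 to 52.4%) and 57.5% with siCtrl (49.4 to 65.3%). These intervals reflect counting error alone and leave out the spread between libraries. The 5p arm exceeded the 3p arm in 0 of 6 siSFPQ libraries, 2 of 6 siNONO libraries and 2 of 3 siCtrl libraries. siCtrl replicate 1, with 38 counts of 5p and 12 of 3p, had the highest ratio of the 24 libraries. Without it the siCtrl ratio averaged -0.02 and the 5p share was 49.1% (54 of 110 counts, interval 39.4 to 58.8%), beside 48.9% after NONO loss.

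For NEAT1 the arm balance was tested. The 5p share was 50.6% after NEAT1 loss (46.2 to 54.9%) and 53.8% with ASO-Ctrl (48.6 to 59.0%). The log2 ratio differed by -0.14 between the 6 NEAT1 libraries and the 3 ASO-Ctrl libraries (exact two-sided permutation p = 0.738). The ratio averaged -0.30 ± 0.12 for ASO-NEAT1-1047 and 0.53 ± 0.11 for ASO-NEAT1-1473 (SD, n = 3 each). All 3 libraries of the first lay below those of the second, in a design that cannot reach the threshold (exact permutation p = 0.1, the smallest that 3 against 3 allows; adjusted p = 0.4 over 4 comparisons of this ratio).

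**Figure D3:**
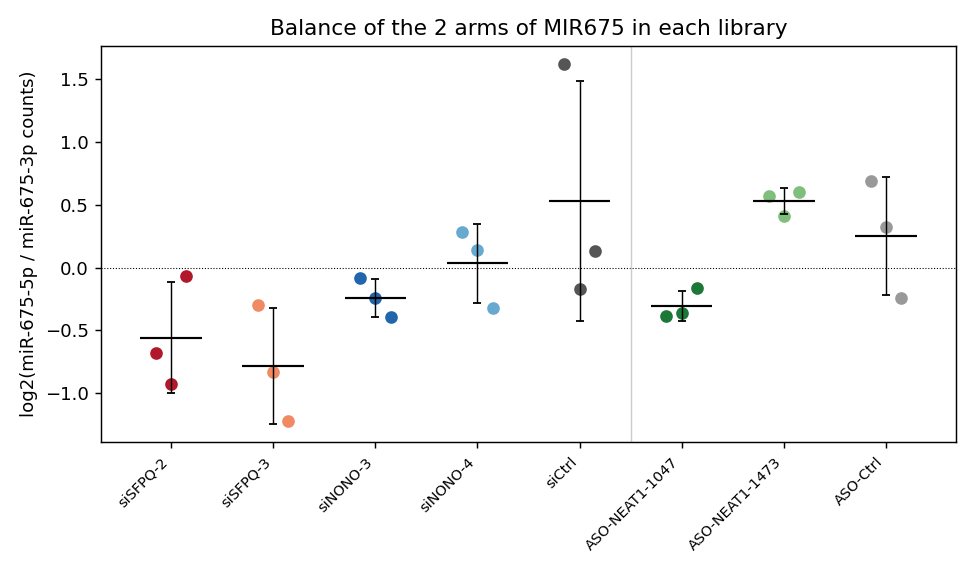
Each point is the log2 ratio of miR-675-5p to miR-675-3p counts in 1 library, with bars for the group mean and SD (n = 3). All 6 siSFPQ libraries lie below 0, the ASO-NEAT1-1473 libraries lie above the ASO-NEAT1-1047 libraries, and siCtrl replicate 1 lies at 1.62.

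H19 and MIR675 neighbour IGF2, whose intron holds MIR483, on the same strand of chromosome 11 (miR-483-5p at 2134181 to 2134202, miR-483-3p at 2134142 to 2134162). In the imprinted region H19 is expressed from the maternal copy and IGF2, a fetal growth factor, from the paternal copy. miR-483-5p had 96.6, 220.3 and 190.3 CPM for siSFPQ-2 and 157.2, 76.3 and 124.8 CPM for siSFPQ-3. It had 294.4, 429.7 and 593.9 CPM for siNONO-3 and 304.0, 476.6 and 495.5 CPM for siNONO-4, against 258.2, 261.0 and 257.6 CPM for siCtrl. Like miR-675-5p, it lay below siCtrl in all 6 siSFPQ libraries and above siCtrl in all 6 siNONO libraries. Of all miRNAs, 14.2% lay wholly below siCtrl after SFPQ loss and 3.99% wholly above it after NONO loss. How many showed both was not counted. The summed vessel and stroma miRNAs, given below, also lay wholly below siCtrl after SFPQ loss and wholly above it after NONO loss. No other list described below did both when summed.

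The log2 fold change of miR-483-5p was -0.87 ± 0.31 for SFPQ and 0.74 ± 0.33 for NONO. Without siCtrl replicate 1 it was -0.90 for SFPQ and 0.67 for NONO. miR-483-3p, the more abundant arm, had -0.44 ± 0.41 for SFPQ and 1.02 ± 0.44 for NONO, and -0.45 and 0.98 without that library. These are a description, since MIR483 was singled out after its values in these libraries were seen. After NEAT1 loss miR-483-5p differed by -0.08 ± 0.31 and miR-483-3p by -0.33 ± 0.41 (edgeR adjusted p = 0.943 and 0.910). In the ASO-Ctrl libraries miR-483-5p ranged from 184.1 to 399.5 CPM, so that both its siSFPQ and its siNONO libraries overlapped with ASO-Ctrl.

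**Figure D4:**
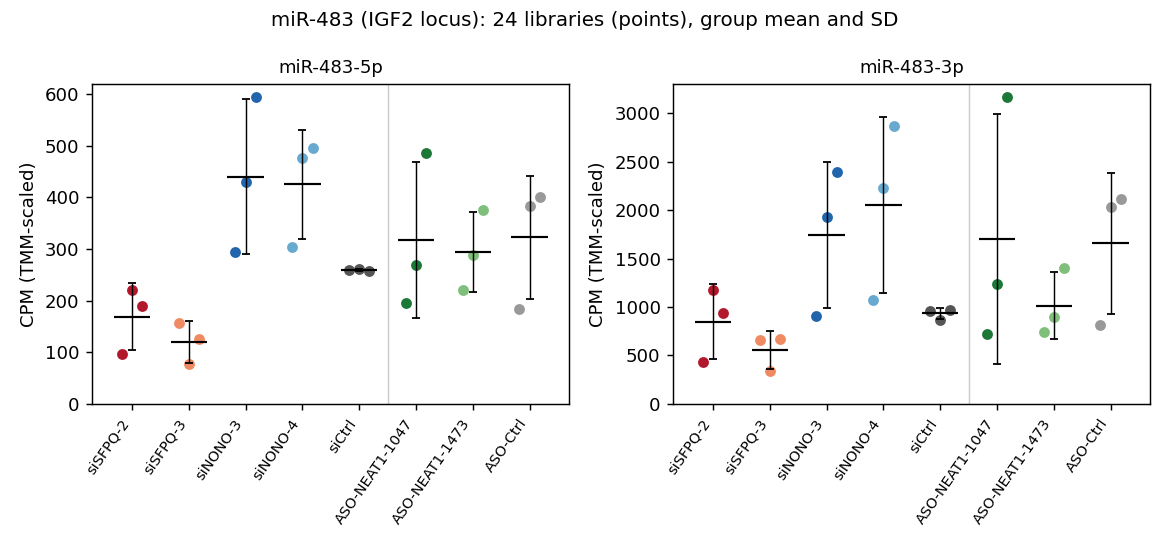
Each point is the CPM of miR-483-5p or miR-483-3p in 1 library, with bars for the group mean and SD (n = 3). The 3 siCtrl libraries of miR-483-5p lie together between 257.6 and 261.0 CPM, with the siSFPQ libraries below and the siNONO libraries above them.

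A list of 94 mature miRNAs of imprinted loci set MIR675 beside others of its kind; 13 of them were tested, among them both arms of MIR675. SFPQ loss lowered 4 of the 13 and raised 0, beside 22.7% of all 626 miRNAs lowered and 25.6% raised. These were miR-335-3p (-1.41) and miR-335-5p (-0.86), both from an intron of the imprinted gene MEST, with miR-675-5p (-1.38) and miR-483-5p (-0.87), all as log2 fold changes. The median of the 13 was 0.04, beside 0.02 for all 626 miRNAs. NONO loss, the contrast that chose miR-675-3p, raised that 1 and lowered 0, beside 0.958% and 0.639% of all miRNAs, with a median of -0.02 beside 0.01. NEAT1 loss changed 0 of the 13, with a median of -0.14 beside -0.04. The 7 tested miRNAs of the imprinted 14q32 cluster had no call in any of the 3 comparisons. They were scarce, averaging 1.21 to 3.46 CPM in siCtrl, with SEs of 0.54 to 0.82 after SFPQ loss. The lack of a call does not show that their levels were equal.

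Of the marker lists, muscle miRNAs summed to 144.6 to 222.5 CPM in the siSFPQ libraries and 271.6 to 572.7 CPM in the siNONO libraries, against 364.2 to 445.9 CPM in siCtrl; SFPQ loss lowered 4 of 5 tested and NONO loss 0, beside 22.7% and 0.639% of all miRNAs. Vessel and stroma miRNAs summed to 952.2 to 1084 CPM in the siSFPQ libraries and 1595 to 2836 CPM in the siNONO libraries. The siCtrl libraries had 1290 to 1534 CPM. SFPQ loss lowered 3 of 5 and NONO loss 0, beside the same shares. After NONO loss 0 of the 5 were called higher, with a median log2 fold change of 0.57 beside 0.01 for all miRNAs. Of 11 neuroendocrine and neural miRNAs tested, SFPQ loss raised miR-375-3p (2.99) and miR-96-3p (1.65) and lowered miR-7-5p (-0.69) and miR-9-5p (-0.65). Of all 626 miRNAs, 25.6% were raised and 22.7% lowered. The raised miR-375-3p and miR-96-3p were scarce, at 0.669 and 2.74 CPM in siCtrl. NONO loss changed 0 of the 11, beside 1.6% of all miRNAs. The 2 tested blood miRNAs had no call, and NEAT1 loss changed 0 in every list. The part of these shifts in the values of the 5 miRNAs was not tested.

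The miRNAs whose log2 CPM ran most like those of the 5 were found by Pearson's r over the 24 libraries, given without a p because the libraries share the wide SFPQ difference. For miR-1269a they were, after miR-1269b (0.998), miR-130b-5p (0.841) and miR-128-3p (0.813), and for miR-1269b miR-130b-5p (0.839) and miR-152-3p (0.811). For miR-676-3p they were miR-196b-5p and miR-196a-5p (0.613 each), near-identical in sequence, and miR-199b-3p (0.605). For miR-675-3p they were miR-330-5p (0.844), miR-186-5p (0.818) and miR-483-5p (0.806). For miR-675-5p they were miR-653-5p (0.915), miR-708-5p (0.909) and miR-1322 (0.891). The arms of MIR675 had an r of 0.762 with each other, and miR-676-3p and miR-675-3p one of -0.336.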

How the data were processed

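The authors deposited whole-number counts for each mature miRNA locus and spike-in, 1 table a library; featureCounts 2.0.3 made them, per the file headers. From the submitters' processing notes come the tools Trimmomatic 0.39, UMI-tools 1.1.1, Bowtie 1.3.0, DESeq2 1.38.1 and Subread 2.0.3, and the build hg38. No source used here says whether reads were collapsed by molecular identifier, so intervals reflect counting error alone. A table lists 2883 loci plus 52 spike-ins (2.20 to 4.47% of counts), and 927 to 1220 miRNAs were detected per library. Where a miRNA had several loci (169 cases), that with the largest total was kept. Names came by position (within 3 bases) from RefSeq GRCh38.p14, then GENCODE v29, for 2624 of 2652.

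Tests on the deposited counts used R 4.3.3 and limma 3.58.1 through edgeR 4.0.16: filterByExpr at a minimum count of 10, TMM, a model with 8 group means (16 residual degrees of freedom; common dispersion as a coefficient of variation 0.250), the quasi-likelihood test, and Benjamini-Hochberg adjustment at 0.05. A knockdown is the mean of its reagents minus its control. SE is the size of the log2 fold change over the square root of F. The fit was tested on simulated data. Alternatives were DESeq2 1.42.0, other scalings and filters, 1 row for miR-1269a and miR-1269b, a replicate block, the compared groups alone and leaving out each library; ASO-Ctrl in place of siCtrl was added after the data were seen. Similar miRNAs were ranked by Pearson's r of log2 CPM (prior count 2), leaving out rows within 10% of a described miRNA's count in every library. Same-numbered libraries deviated together at all 3 numbers for the NEAT1 ASOs (correlation 0.38 to 0.54), where the replicate block changed no call. All 24 replicate pairs differed beyond counting noise (lowest chi-square per degree of freedom 37.9).

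The 5 miRNAs and the lists (imprinted-locus hairpins, and neuroendocrine, blood, muscle, liver and vessel markers) were chosen with earlier results of these data known. The miRNAs named beside the 5 were the other MIR676 arm, list members with a call (at most 4 per list, by absolute fold change) and the 3 most alike; MIR483 was given its own account after its values were seen.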

Additional observations from a re-analysis of the deposited data

Results flagged for a closer look

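miR-675-5p differed between SFPQ loss and NONO loss, which share the siCtrl libraries. A miRNA was flagged if all libraries of 1 knockdown lay below siCtrl and all of the other above it. The separation given here is therefore the rule that picked it, and nothing more is read from it. All 6 siSFPQ libraries lay below siCtrl, as for 14.2% of all miRNAs, and all 6 siNONO libraries above it, as for 3.99%. SFPQ loss minus NONO loss was -2.12 on the log2 scale. For miR-675-5p, ASO-Ctrl also exceeded siCtrl by 0.62 ± 0.27, and NONO loss against ASO-Ctrl was 0.11 ± 0.22. miR-483-5p, from the neighbouring IGF2 intron, also lay below siCtrl in all 6 siSFPQ libraries and above it in all 6 siNONO libraries. Its SFPQ loss minus NONO loss was -1.60. How many of all miRNAs showed both was not counted, and the summed vessel and stroma miRNAs showed both too. Neither SFPQ minus NONO difference was tested, since both use the libraries by which the miRNAs were chosen.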

How the results depend on the processing

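The NONO count of 10 called miRNAs was 21 when scaled on library totals, 6 on spike-in totals, 19 without a filter, 3 with only the compared groups and 20 with DESeq2. With 1 row for miR-1269a and miR-1269b the NONO count was 7, with 5 higher and 2 lower. Leaving out single libraries, it ran from 6 (without siCtrl replicate 1) to 16 (without siNONO-4 replicate 1). Between the SFPQ siRNAs the count of 4 was 1 on spike-in totals, 0 at a mean of at least 10 CPM, 0 with only the compared groups and 0 to 3 without single libraries. Between the NONO siRNAs the count of 0 was 3 at a mean of at least 10 CPM, 7 with DESeq2 and 0 to 2 without single libraries, and between the NEAT1 ASOs it was 1 without a filter. With a replicate block the counts were 24 for NONO, 12 between the SFPQ siRNAs and 1 between the NONO siRNAs, and 0 between the NEAT1 ASOs and for NEAT1 loss. The labels do not say what the replicate numbers share. Of the 28 pairs of groups, 6 had a correlation of deviations over 0.1 at all 3 numbers, among them the NEAT1 ASOs (0.38 to 0.54). The siRNA groups with siCtrl, the NEAT1 ASOs with ASO-Ctrl and the reagents of SFPQ or NONO with each other did not, although 18 of 24 libraries correlated best with their own number. Whether the numbers mark a shared batch was not tested. The SFPQ count of 302 ran from 209 to 319, and the NEAT1 count was 0 in all 18 alternatives.

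The SFPQ and NONO values of the 5 miRNAs are a description here too. For NONO loss the log2 fold change ran from -1.72 to -1.04 for miR-1269a, -1.31 to -0.51 for miR-676-3p, 0.44 to 1.53 for miR-675-3p and 0.11 to 0.85 for miR-675-5p; the values nearest 0 were those without siCtrl replicate 1 for miR-1269a and those against ASO-Ctrl for the others. None of the 5 was among the 6 miRNAs called without siCtrl replicate 1, or among the 3 called with only the compared groups. Against ASO-Ctrl none of the 5 was called either. miR-675-3p was not called on spike-in totals or in 5 of the 9 fits that left out a library. Without a filter miR-676-3p was not called. For SFPQ loss the log2 fold change ran from -2.44 to -1.71 for miR-1269a, -0.96 to -0.20 for miR-676-3p and -2.01 to -0.92 for miR-675-5p. miR-676-3p was called for SFPQ loss in 15 of 19 alternatives. It was not called on library totals, on spike-in totals, without a filter or against ASO-Ctrl. The SFPQ value of miR-675-3p ran from -1.12 against ASO-Ctrl to 0.17 on library totals, with -0.65 without siCtrl replicate 1 and 0.01 without siCtrl replicate 2. Library totals moved the median of all miRNAs to 0.47 for SFPQ loss and 0.12 for NONO loss, beside 0.02 and 0.01 with TMM, and spike-in totals moved that between the SFPQ siRNAs to -0.46, beside 0.09. The cause was not tested. The arm balance of MIR675 after NEAT1 loss ran from -0.39 to 0.08. The lowest count, 10 of miR-675-5p, has an exact Poisson 95% interval of 4.80 to 18.4 counts.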
